A study of Mus musculus with 16 samples.

Results

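The ear skin of B6 mice on a normal diet (ND) without phorbol ester is the baseline state of this RNA sequencing study, and it is described here on its own. The libraries were those whose titles read ND_cont, 4 of 16 in the gene count table. The other 12 libraries were from mice on a high-fat diet (HFD), given for 8 weeks, or from ears taken 24 h after 200 ng of PMA, a phorbol ester that provokes skin inflammation, or from both. They are used in no value below. The labels give the 4 animals as separate ND mice and their treatment as none. They do not give age, sex, time of day or coat phase, and the treatment text is worded alike for every sample, and the sources used here do not say if control ears were given the vehicle. Whole ear tissue was homogenised, so every value is an average over all cell types of the pinna, and fewer cells of a type and less RNA per cell cannot be told apart.

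The mouse ear is a thin sheet of hairy skin on both faces of a plate of elastic cartilage, with strips of skeletal muscle, nerves, vessels and a little fat between them. Its epidermis renews from basal cells that carry keratins 5 and 14. These cells move outward, switch to keratins 1, 10 and 2, and finally build a cornified envelope of cross-linked proteins and lipids. Sebaceous glands, attached to the hair follicles, fill with lipid and burst to coat the surface with wax esters and other sebum lipids.

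Levels are given as TPM, a transcript abundance corrected for gene length and depth. Each deposited count was divided by the gene length in the same table and scaled to the same total in every library. Values in a series of 4 are for replicates 1, 2, 3 and 4, and means carry the SD over these 4 libraries. The libraries held 7739487, 10209278, 10339316 and 8627332 counts, so 1 TPM of a gene 2 kb long stood for 5.13 to 6.70 counts. Of 48440 listed genes, 22709 had 0 counts in all 4 libraries and 18672 had a mean of at least 1 TPM, of which 14042 were protein-coding. A mean of at least 10 TPM was reached by 10495 genes, 100 TPM by 1866 and 1000 TPM by 78. Genes of the mitochondrial genome made up 4.30 ± 0.68% of TPM. Pearson correlations of log2(TPM + 1) between libraries, across 18672 genes that are not independent replicates, ran from 0.912 to 0.931. A check for a library present more than once gave chi-square values of 10.01 to 25.3 per degree of freedom between pairs, set against counting error only. Shares over all genes below leave out mitochondrial, rRNA and predicted genes, which leaves 9509 gene IDs of at least 10 TPM. Of these, 20.6, 18.9, 22.3 and 38.2% had their highest value in replicates 1, 2, 3 and 4, and 27.3, 23.2, 27.6 and 21.9% their lowest.

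Markers of the labelled tissue were present. All 11 basal and all 12 suprabasal epidermal genes of the lists used here reached a mean of 1 TPM, as did 32 of 33 genes of the cornified envelope, all 14 of the sebaceous gland and all 24 of dermal fibroblast matrix. Of the muscle, cartilage and adipocyte lists, 29 of 29, 15 of 17 and 17 of 17 genes did so. Of all protein-coding genes, 22.4% of those of 500 to 1000 bases and 83.0% of those of 4000 to 8000 bases reached it. The lists were chosen with earlier results of these data known, so these counts alone do not identify the tissue. The salivary gland, whose parotid lobe lies at the base of the ear, had 0 counts for Smr3a, Prol1 and Dcpp1. Amy1, the amylase of saliva, was the only gene of that list above 1 TPM, at 9.503, 15.2, 17.3 and 19.7 TPM, and it shares exon bases with Rnpc3, so its reads cannot be assigned with certainty. Ucp1, which defines brown fat, had 3 counts over all libraries. The Y-linked Ddx3y stood at 45.2, 46.7, 43.4 and 47.0 TPM and Xist, transcribed from the inactive X chromosome, averaged 0.07 TPM, alike in all 4 libraries.

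Keratins led the baseline transcriptome. The 30 most abundant nuclear genes, leaving out rRNA and predicted gene models, held 14.8 ± 0.4% of TPM, and 5 of them were keratins. Krt2, a type II keratin of the upper spinous and granular layers that is known to be abundant in mouse ear epidermis, ranked first with 23348, 23792, 22800.4 and 27945 TPM. Its mean was 24471.5 ± 2351 TPM (n = 4), and the gene lies on chromosome 15. Replicate 4 was the highest and the other 3 lay close together. Gsn, which encodes the actin-severing protein gelsolin, came second at 12102 ± 2678 TPM. Krt14 followed at 10678 ± 1866 TPM, Krt15 at 9133 ± 1030.2 TPM and Krt10 at 6308 ± 124 TPM. The gap between Gsn and Krt14 was smaller than either SD, so their order is not settled by 4 libraries.

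**Figure D1:**
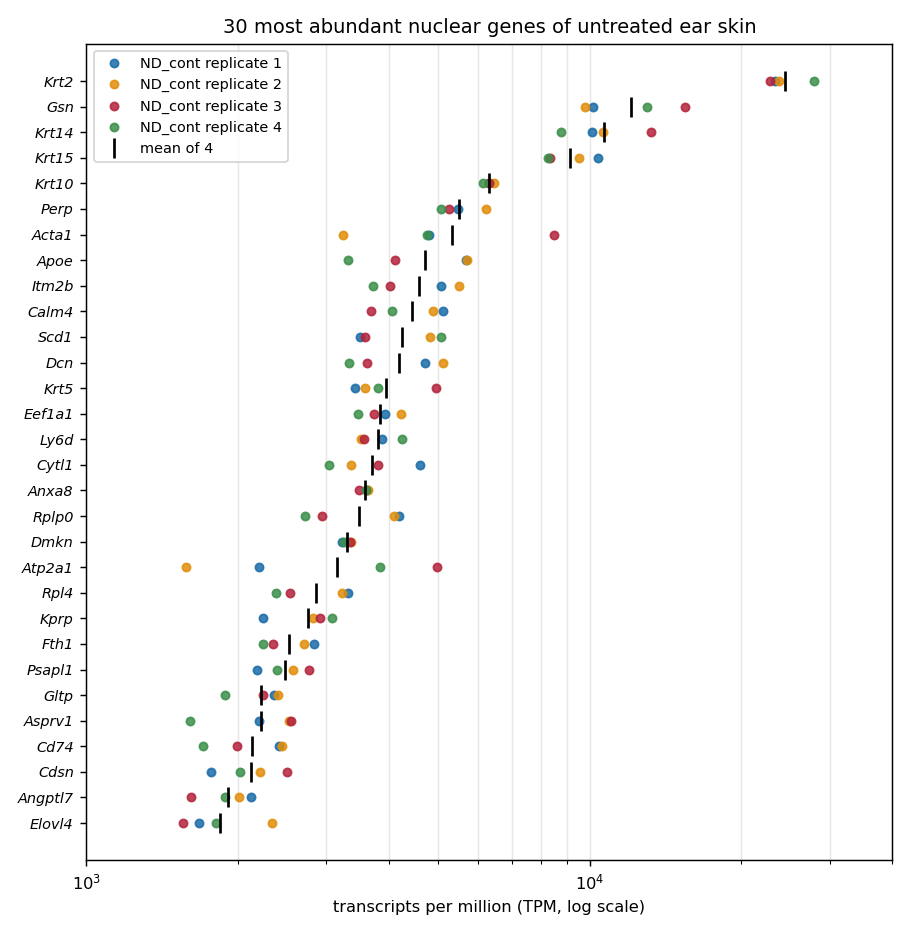
TPM (log scale) of the 30 most abundant nuclear genes, 1 point per library and a bar for the mean of 4. Krt2 stands apart at the top with 22800.4 to 27945 TPM, while Acta1 and Atp2a1 are spread widest, from 3233 to 8512 and from 1579 to 4981 TPM.

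After the keratins came genes of several other layers of the ear. Perp, a membrane protein of desmosomes, averaged 5508 ± 514 TPM, Calm4, a calcium-binding protein of keratinocytes, 4435 ± 677 TPM, and Anxa8, an annexin, 3582 ± 64.8 TPM. Acta1, the actin of skeletal muscle, ranked 7 with 5325 ± 2246 TPM. Apoe, a lipid carrier, averaged 4703 ± 1196 TPM and Scd1, the desaturase that makes monounsaturated fatty acids in sebaceous glands, 4239 ± 814 TPM. Dcn, the dermal proteoglycan decorin, stood at 4187 ± 857 TPM and Cytl1, a secreted protein of chondrocytes, at 3694 ± 677 TPM. Housekeeping genes were fewer: Eef1a1 (translation elongation), Rplp0 and Rpl4 (ribosome) and Fth1 (iron storage) were the ones among the 30. Protein-coding genes whose symbols begin with Rpl or Rps and a digit, which leaves out Rplp0, together made up 0.973 ± 0.057% of TPM. Pseudogenes of all kinds made up 5.23 ± 0.21%, and whether reads of ribosomal protein genes were placed on them was not tested. Outside the 30, mt-Cytb averaged 13520.5 TPM and mt-Nd1 10193 TPM, both components of the respiratory chain encoded in mitochondria.

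The promoters of genes that lead the suprabasal, cornified, muscle and cartilage lists by mean TPM are shown, with Atp2a1, the second gene of the muscle list. RefSeq promoters on GRCm38.p6 were matched by symbol, and 150 bases upstream of the annotated start are printed 5′ to 3′ on the gene's strand. They lie at chr15:101818170-101818319 (Krt2, minus strand), chr6:86628024-86628173 (Asprv1, plus), chr8:123894776-123894925 (Acta1, minus), chr7:126463074-126463223 (Atp2a1, minus) and chr5:37735369-37735518 (Cytl1, plus). Capitals mark a CArG box, the motif bound by serum response factor, and a TATAAA motif.
Krt2: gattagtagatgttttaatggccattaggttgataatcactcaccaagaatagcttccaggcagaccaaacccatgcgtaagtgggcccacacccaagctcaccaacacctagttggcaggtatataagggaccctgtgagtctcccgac
Asprv1: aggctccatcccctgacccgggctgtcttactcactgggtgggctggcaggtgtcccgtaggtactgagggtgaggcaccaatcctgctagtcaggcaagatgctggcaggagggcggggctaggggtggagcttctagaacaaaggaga
Acta1: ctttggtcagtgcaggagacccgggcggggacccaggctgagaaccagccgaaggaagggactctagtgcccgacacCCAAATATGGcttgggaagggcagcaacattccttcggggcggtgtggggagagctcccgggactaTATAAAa
Atp2a1: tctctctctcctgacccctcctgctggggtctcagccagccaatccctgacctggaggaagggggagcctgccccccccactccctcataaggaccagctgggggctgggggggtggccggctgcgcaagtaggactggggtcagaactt
Cytl1: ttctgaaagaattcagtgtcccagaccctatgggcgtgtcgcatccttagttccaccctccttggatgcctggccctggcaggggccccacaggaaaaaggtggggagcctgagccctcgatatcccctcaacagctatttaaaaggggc
Searching both strands for TATAAA, the E-box CANNTG and the CArG box, Acta1 held 1 TATAAA and, upstream of it, 1 CArG box. Asprv1 and Atp2a1 each held 1 CANNTG, and Krt2 and Cytl1 held no exact match to these motifs in this window. Only exact matches were counted, so the tatataag of Krt2 was not. Of the 29 muscle genes 22 matched, with 27 promoters, of which 5 held TATAAA, 17 CANNTG and 2 a CArG box. Among 32851 promoters of the same length, 7.57% held TATAAA, 47.7% CANNTG and 0.916% a CArG box. A match describes letters, not a site. Promoters of Krt14, Scd1, Dcn, Tcap and Car3 are not shown.

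Of the basal layer, 11 genes summed to 26069.5 ± 2216 TPM, or 2.61% of all TPM. Krt14, which pairs with Krt5 to form the basal keratin network, had 10096, 10622, 13222 and 8772 TPM, highest in replicate 3 and lowest in replicate 4. Krt5 had 3417, 3573, 4960 and 3790.5 TPM and was also highest in replicate 3. The ratio of Krt14 to Krt5 was 2.73 ± 0.31, so the partners of the filament were not equal in TPM. The reads of Krt5 cannot be assigned with certainty, since it shares exon bases with a model on the opposite strand. Krt15, a type I keratin of basal cells and the follicle bulge, nearly matched Krt14, with 10398, 9546, 8336 and 8251 TPM. Col17a1, the hemidesmosomal collagen that anchors basal cells, averaged 1627 ± 239 TPM. The remaining 7 genes were lower. Itgb4, its integrin partner in the hemidesmosome, averaged 162 ± 35.0 TPM, Lamb3, a chain of laminin-332, 155 ± 9.33 TPM, and Trp63, the transcription factor that maintains stratified epithelia, 143 ± 30.3 TPM.

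The suprabasal layers gave the largest sum of any tissue list, with 12 genes at 40787 ± 2131 TPM or 4.08% of TPM. Krt2 alone made up more of it than the other 11 genes together. Krt1, the usual partner of Krt10 in the spinous layer, had only 616, 559.5, 1055 and 905 TPM, and the ratio of Krt2 to Krt1 was 33.2 ± 9.1, between 21.6 and 42.5. Krt10, the type I partner of both, held 6308, 6453, 6323 and 6149 TPM. It was among the steadiest of the abundant genes, with a coefficient of variation (CV, SD over mean) of 1.97%, although it overlaps a gene model on the opposite strand. Krt77, another suprabasal type II keratin, had 341, 353, 743 and 558 TPM, higher in replicates 3 and 4 than in 1 and 2, the same split as Krt1. Dmkn (dermokine), a secreted protein of the upper epidermis, was flat at 3219.9, 3363, 3341 and 3254 TPM. Sfn, the 14-3-3 sigma protein of keratinocytes, averaged 1475 ± 358 TPM, Lypd3, a GPI-anchored surface protein, 1277 ± 186 TPM, and the desmosomal cadherin Dsg1a 913 ± 104 TPM.

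Across the keratin family, 54 genes were listed, 35 reached 1 TPM, 14 reached 100 TPM and 4 had no count, and the family as a whole took 6.06 ± 0.14% of TPM. A mean of 1 TPM was reached by 45.6% of all protein-coding genes of 1 to 2 kb and 70.3% of those of 2 to 4 kb. Beyond those named above, the keratins above 100 TPM were Krt17, Krt79, Krt80, Krt23, Krt24, Krt78 and Krt6a. Krt79, a keratin of the follicle funnel and sebaceous duct, averaged 886 ± 227 TPM, Krt80 788 ± 139.8 TPM, Krt23 711 ± 76.5 TPM, Krt24 599.9 ± 110.7 TPM and Krt78 187 ± 53.1 TPM. Simple epithelial keratins were low, with Krt8 at 5.96 ± 2.32 TPM, Krt19 at 5.41 ± 2.43 TPM and Krt18 without a count in replicates 1 and 4.

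Cornified envelope genes, 33 in number, summed to 13177 ± 927 TPM, 1.32% of TPM, and the highest library exceeded the lowest by 1.16 times. Asprv1, the protease that helps process filaggrin, had 2199, 2531, 2552 and 1603 TPM, lowest in replicate 4. Cdsn, the adhesive protein of corneodesmosomes, had 1769, 2216, 2504 and 2021 TPM. Klk7, a protease that cuts corneodesmosomes during shedding, averaged 1092 ± 128 TPM and Spink5, an inhibitor of such proteases, 507 ± 34.2 TPM. Lor, the main envelope protein loricrin, had 1101, 673, 1166 and 969.6 TPM, with replicate 2 below the others. Filaggrin itself (Flg) averaged 71.6 ± 12.5 TPM, against 426 ± 46.0 TPM for its relative Flg2, but Flg is a repeat-rich gene whose reads are hard to place. The late cornified envelope genes fell into 2 blocks. The 12 genes of the Lce1 group lay between 137 and 590.1 TPM on average, while the 6 Lce3 genes lay at 21.3 TPM (Lce3c) or lower and Lce3a had 0 counts. Members of this family are near-identical, and values of single Lce genes are uncertain for that reason.

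Sebaceous gland genes, 14 in number, summed to 7644, 10118, 7154 and 8572 TPM, a mean of 8372 ± 1304 TPM or 0.837% of TPM. Replicate 2 was the highest. Scd1 supplied 50.6% of the sum, and dermal fat is known to express it too. Elovl3, which elongates fatty acids for sebum, had 1128, 1268, 734 and 647 TPM, higher in replicates 1 and 2. Awat1, an acyltransferase that makes wax esters, had 363, 497, 245 and 223 TPM in the same order of pairs. Fa2h, which hydroxylates fatty acids of glandular and epidermal lipids, averaged 912 ± 146 TPM and Acsbg1, an acyl-CoA synthetase, 678 ± 88.9 TPM. Of the 14 genes, 11 were highest in replicate 2, among 18.9% of all genes of at least 10 TPM that had their highest value there. The median CV of the list was 31.2%, and that of all genes of at least 10 TPM was 17.4%. Krt79 was also highest in replicate 2, with 769, 1196, 904 and 673 TPM. Elovl3 overlaps another gene on the opposite strand.

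The dermis was represented by 24 genes of fibroblasts and their matrix, which summed to 10806 ± 729 TPM or 1.08% of TPM. Dcn, which binds collagen fibrils, had 4707, 5111, 3604 and 3327 TPM and made up 38.7% of the sum. The fibrillar collagens went the other way: Col1a1 had 1033, 1451, 1764 and 1616 TPM and Col3a1 490.3, 699.9, 769 and 884 TPM. The ratio of Dcn to Col1a1 was therefore 4.56 and 3.52 in replicates 1 and 2 but 2.04 and 2.06 in replicates 3 and 4. The chains of type I collagen, which assemble from alpha 1 and alpha 2, kept a steadier ratio, with Col1a1 at 2.88 ± 0.24 times Col1a2. The size of this ratio depends on the listed lengths of 6563 and 12426 bases. Total counts were 115719 and 75275. Sparc, a matrix protein made by many stromal cells, averaged 909.9 ± 119.7 TPM, Mmp2, a matrix protease, 706 ± 56.2 TPM, and the fibroblast marker Pi16 168 ± 15.7 TPM. Of 44 collagen genes, 39 reached 1 TPM, as did 83.0% of all protein-coding genes of 4 to 8 kb and 83.7% of longer ones. Of the 44, 6 reached 100 TPM. The 6 were Col17a1, Col1a1, Col3a1, Col1a2, Col6a1 (412 ± 66.3 TPM) and Col8a1 (279.7 ± 36.1 TPM), a network-forming collagen. All collagen genes together made up 0.580 ± 0.092% of TPM.

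Of the 8 tissue lists, skeletal muscle varied most between the libraries. Its 29 genes summed to 13589, 9556, 23704 and 16178 TPM, a mean of 15757 ± 5958 TPM or 1.58% of TPM. The highest library exceeded the lowest by 2.48 times, while the 3 epidermal sums varied by 1.11 to 1.23 times. Acta1 (chr8, positions 123891769 to 123894751, 8 exon blocks) had 4793, 3233, 8512 and 4760.5 TPM. Atp2a1, the calcium pump of fast fibres, had 2200.02, 1579, 4981 and 3838 TPM, and it overlaps Rabep2 on the opposite strand. Tcap, a protein of the Z disc, had 1374, 856, 1498 and 1103 TPM and Ckm, the creatine kinase of muscle, 592, 457, 1112 and 549 TPM. Replicate 3 was the highest and replicate 2 the lowest for each of these 4 genes. Over the list, 25 of 29 genes had this order and all 29 were lowest in replicate 2. Of all genes of at least 10 TPM, 8.03% had this order and 23.2% were lowest in replicate 2. At least a 2-fold difference between the highest and lowest library was seen for 21 of the 29 genes, against 12.4% of all 9507 genes of at least 10 TPM considered. The median CV of the list was 35.3%.

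Fast forms of the myosin heavy chains and of troponins T and I exceeded slow forms in all 4 libraries, but troponin C did not. Among 4 myosin heavy chains, Myh1 (type 2X fibres) made up 46.2 ± 3.1% and Myh4 (type 2B) 44.7 ± 1.2%, while Myh2 (type 2A) made up 6.65 ± 0.78%. Myh7, the slow chain, held 1.66%, 1.38%, 3.84% and 3.08%, higher in replicates 3 and 4. Slow troponins Tnnt1 and Tnni1 held 5.03 ± 0.48% of the slow and fast forms together. The ratio of Acta1 to Ckm was 7.87 ± 0.68, between 7.07 and 8.67. The ratio of Acta1 to Myh4 was 13.7, 12.7, 13.01 and 7.52, so muscle genes did not all move in step, and replicate 4 was the lowest. Mb (myoglobin) was the steadiest of the more abundant muscle genes, with 171, 168, 198 and 180.4 TPM. Tnnc1, slow troponin C, had 16.1, 8.02, 17.7 and 14.1 TPM, above the 1.95, 0.373, 0.378 and 1.89 TPM of Tnnc2, fast troponin C. Tnnc2 had only 10 counts over the 4 libraries. It shares exon bases with Ube2c on the opposite strand, so its level is uncertain.

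Cartilage genes summed to 5385 ± 802 TPM, 0.539% of TPM, but 1 gene carried most of it. Cytl1 had 4596, 3355, 3792 and 3032 TPM and made up 68.6% of the sum. Chad (chondroadherin), a matrix protein that binds chondrocytes, had 1107, 1127, 1513 and 911 TPM, and Comp, a pentameric matrix protein of cartilage and tendon, averaged 165 ± 24.0 TPM. Cnmd (chondromodulin), an inhibitor of vessel growth into cartilage, averaged 145 ± 25.8 TPM. The classical matrix genes were lower: Acan, the large proteoglycan aggrecan, averaged 46.6 ± 13.7 TPM and Col2a1, the main collagen of cartilage, 22.5 ± 9.64 TPM. Matn1, a matrilin of cartilage, had 0 counts in all 4 libraries. Collagen XI and IX chains lay between 9.51 and 41.3 TPM.

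Adipocyte genes gave the smallest of the 8 tissue sums, 2643 ± 240 TPM or 0.264% of TPM. Car3, a carbonic anhydrase abundant in fat that skeletal muscle also expresses, had 1223, 1193, 1139 and 952 TPM and made up 42.6% of it. Cfd, the adipokine adipsin, averaged 597 ± 86.5 TPM, Cidec, a lipid droplet protein, 231 ± 36.0 TPM, Plin4, another coat protein of lipid droplets, 183 ± 30.5 TPM, and Adipoq, the hormone adiponectin, 165 ± 36.2 TPM. Lep, the satiety hormone leptin, was steady at 37.8, 46.6, 43.1 and 41.1 TPM. Fabp4, a fatty acid carrier, averaged 27.9 ± 5.48 TPM over a listed length of 4489 bases. Replicate 3 had the highest value for 9 of the 17 genes, as it had for 22.3% of all genes of at least 10 TPM, and the sums of the highest and lowest library differed by 1.24 times.

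The 8 tissue lists together held 12.3 ± 0.73% of TPM, and the 3 epidermal lists alone 8.00 ± 0.22%. By their mean TPM sums the order was suprabasal epidermis, basal epidermis, skeletal muscle, cornified envelope, dermis, sebaceous gland, cartilage and fat. The order depends on length and on single genes. In CPM, which ignores length, the dermal list (15255) passed muscle (14238) and the sebaceous list (10566) passed the cornified envelope (8903). Without the highest gene of each list, the cornified envelope (10956 TPM) passed muscle (10432 TPM). Across libraries the muscle sums of 9556 to 23704 TPM overlapped those of the basal, cornified, dermal and sebaceous lists, and in replicate 2 muscle was below the sebaceous list at 10118 TPM. The sums depend on which genes were listed and do not give proportions of cells.

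**Figure D2:**
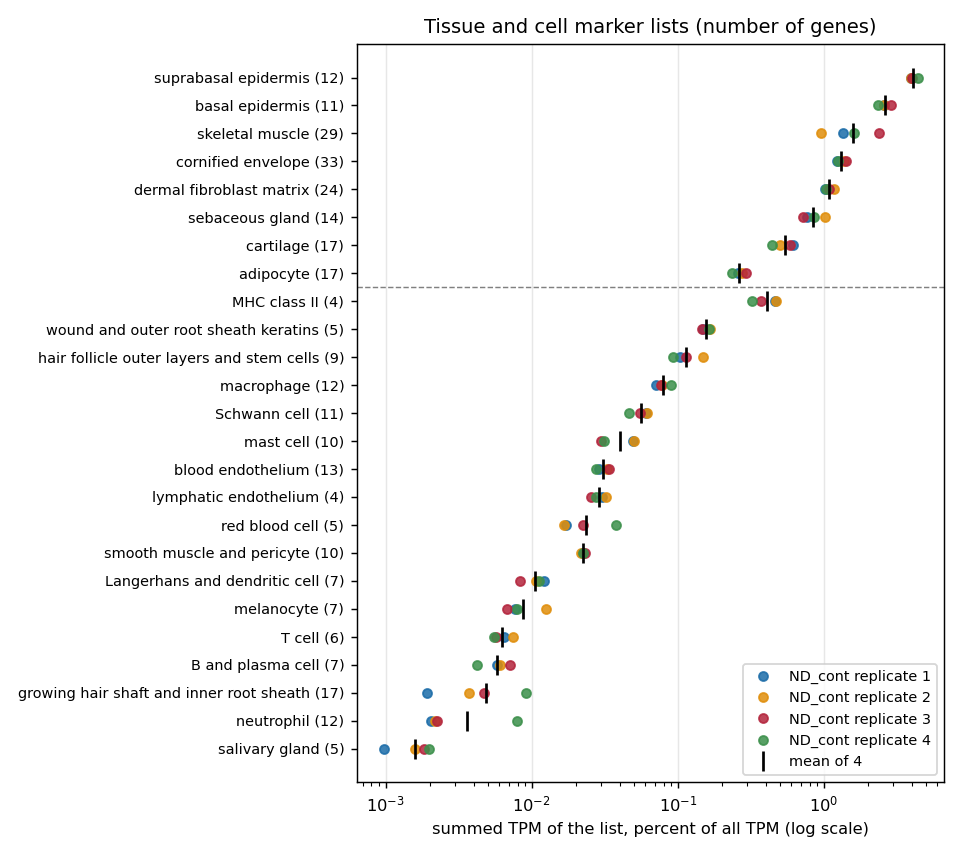
Summed TPM of marker lists as a percentage of all TPM (log scale), 1 point per library and a bar for the mean of 4, with the number of genes in parentheses; the 8 tissue lists stand above the dashed line. The 3 epidermal lists span at most 1.23 times, while skeletal muscle, red blood cell, growing hair, neutrophil and salivary lists span more than 2 times.

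Hair follicles were seen mainly through their outer layers. Krt17, a keratin of the outer root sheath, averaged 1320.2 ± 234 TPM. Stem cell and progenitor genes of the follicle were lower, with Sox9 at 88.5 ± 15.5 TPM, Lgr6 at 57.0 ± 5.33 TPM and Lgr5 at 3.68 ± 1.80 TPM. Genes of the growing shaft and inner root sheath, 17 in the table, summed to only 19.2, 37.0, 46.8 and 91.7 TPM, lowest in replicate 1 and highest in replicate 4. Krt71, of the inner root sheath, had 1.96, 8.74, 7.19 and 37.3 TPM and was the highest of that list. Melanocyte genes summed to 87.1 ± 25.5 TPM, led by Pmel, a melanosome matrix protein, at 42.3 ± 13.8 TPM.

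Vessels and nerves gave low but steady sums. Blood endothelial genes summed to 308 ± 28.7 TPM, led by Plvap of fenestrated vessels at 104 ± 13.6 TPM and the tight junction gene Cldn5 at 76.4 ± 19.0 TPM. Lymphatic genes summed to 289 ± 29.0 TPM, of which the chemokine Ccl21a made up 88.3%, and Prox1, which defines lymphatic endothelium, averaged 1.22 ± 0.574 TPM. Smooth muscle and pericyte genes summed to 224 ± 4.80 TPM. Schwann cell genes summed to 558 ± 71.2 TPM, mostly Pmp22 at 373 ± 46.5 TPM, which other cells also express, while the myelin gene Mbp averaged 59.7 ± 10.2 TPM.

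Genes of immune cells were measured at baseline. MHC class II genes, which present antigen, were the most abundant: Cd74, the invariant chain, had 2414, 2443, 1988 and 1701 TPM and H2-Ab1 had 1314, 1288, 1028 and 875 TPM. All 4 genes of this list were lowest in replicate 4, where 21.9% of all genes of at least 10 TPM had their lowest value. Macrophage genes summed to 791 ± 76.0 TPM, led by F13a1 (a coagulation factor subunit) at 152 ± 34.5 TPM and C1qb (complement) at 147 ± 16.7 TPM. Langerhans cells were seen through Cd207 (langerin) at 49.4, 45.3, 39.5 and 44.7 TPM. Mast cell genes, led by proteases, summed to 490.3, 504, 298 and 315 TPM, higher in replicates 1 and 2. T cell genes summed to 62.8 ± 8.56 TPM, with Cd3e at 15.6 ± 1.08 TPM. Among B cell genes, Ighm (heavy chain of IgM) made up 94.0% of 57.9 TPM while Ms4a1 (CD20) had 0 counts. Neutrophil genes summed to 20.3, 21.9 and 22.4 TPM in replicates 1 to 3 and 79.1 TPM in replicate 4, and their defining genes Ly6g and Elane had 0 counts in every library. Red blood cell genes summed to 172, 167, 225 and 377 TPM, with all 5 genes highest in replicate 4, as were 38.2% of all genes of at least 10 TPM.

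The spread of single genes between the 4 libraries was moderate. It joins differences between mice and between library preparations, also in the biological coefficient of variation below. Over 9507 genes of at least 10 TPM, without mitochondrial, rRNA and predicted genes and with 1 ID per symbol, the median CV was 17.4%, with the middle 50% of genes between 12.2 and 24.2%. Among protein-coding genes it was 35.4% at 1 to 10 TPM, 19.8% at 10 to 30, 16.4% at 30 to 100, 14.4% at 100 to 300, 14.3% at 300 to 1000 and 16.7% at 1000 TPM or more. The highest library exceeded the lowest at least 2-fold for 1175 genes, 12.4%. Without replicate 1, 2, 3 or 4 in turn, 750, 865, 773 and 672 genes did so, since 3 libraries span a smaller range than 4. The common biological coefficient of variation estimated by edgeR was 0.231.

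**Figure D3:**
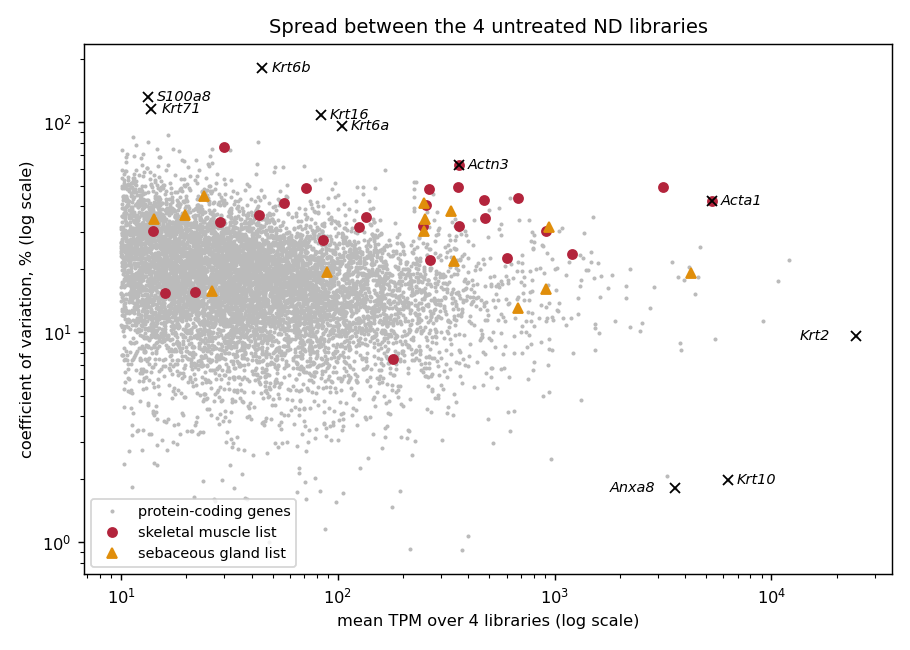
CV over the 4 libraries (log scale) against mean TPM (log scale) for protein-coding genes of at least 10 TPM, with skeletal muscle genes as circles, sebaceous gland genes as triangles and selected genes as crosses. Krt6b, S100a8, Krt71, Krt16 and Krt6a lie above the cloud with CVs of 96.1% or more, and most muscle genes lie in its upper part, while Krt10 and Anxa8 lie near 2%.

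Among the 15 genes with the largest CV, 5 were protein-coding. All 5 had their high value in replicate 4, as had 38.2% of all genes of at least 10 TPM. They were picked for their spread in these same libraries. Krt6b, a keratin of the companion layer and of wounded or thickened epidermis, had 4.20, 2.95, 5.56 and 167 TPM, so replicate 4 was 39.3 times the mean of the other 3. Its near-identical relative Krt6a had 46.7, 61.4, 54.5 and 254 TPM. Krt16, the type I partner of keratin 6, had 35.6, 27.1, 52.9 and 219 TPM. S100a8, a subunit of calprotectin in neutrophils and stressed keratinocytes, had 4.49, 3.44, 5.66 and 39.7 TPM, and its partner S100a9 had 2.24, 3.43, 2.89 and 25.3 TPM. Krt71 is given above. Krt17, also induced in wounds, did not share the pattern, with 1388, 1554, 1343 and 996 TPM. Krt6a and Krt6b overlap other genes on the opposite strand, and reads may be exchanged between them. The other 10 genes were T cell receptor segments and microRNA precursors of at most 83 bases with at most 10 counts in a library.

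Each library also had its own short list of raised genes, taken as protein-coding genes of at least 10 TPM that were at least 2-fold above the mean of the other 3. This restriction to protein-coding genes was made after values were seen. There were 24 such genes in replicate 1, 16 in replicate 2, 60 in replicate 3 and 54 in replicate 4, out of 9255 under the same exclusions. Genes at 0.5 times the mean of the other 3 or less numbered 111, 113, 69 and 76. A gene high in 1 library raises the mean that the remaining libraries are set against, and so counts as low in them. Krt6b, high in replicate 4, was counted as low in replicates 1, 2 and 3 in this way. The numbers of raised and lowered genes are therefore not comparable. The raised genes of replicate 1 included some immediate early genes, which switch on within minutes of a stimulus. Fosb had 25.04, 4.16, 11.4 and 4.84 TPM, Fos 44.4, 6.47, 28.6 and 21.99 TPM, and Atf3 49.6, 9.28, 27.8 and 16.1 TPM. Of 11 immediate early and heat shock genes, 8 were highest in replicate 1 and 8 were lowest in replicate 2, while 20.6% and 23.2% of all genes of at least 10 TPM were so. The sum of the list differed by 1.33 times. In replicate 2 the raised genes included Ces4a, a carboxylesterase, with 178, 381, 206 and 133 TPM, and Cyp2b23, a cytochrome P450, with 66.8, 149, 54.7 and 60.03 TPM. In replicate 3 they included Xirp1, an actin-binding protein of muscle, with 9.61, 12.4, 52.2 and 31.4 TPM. Replicate 4 added Gjb2 (connexin 26), a gap junction gene of keratinocytes, with 37.8, 42.9, 27.2 and 97.1 TPM, and the metallothionein Mt2 with 17.5, 16.1, 27.7 and 66.6 TPM.

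**Figure D4:**
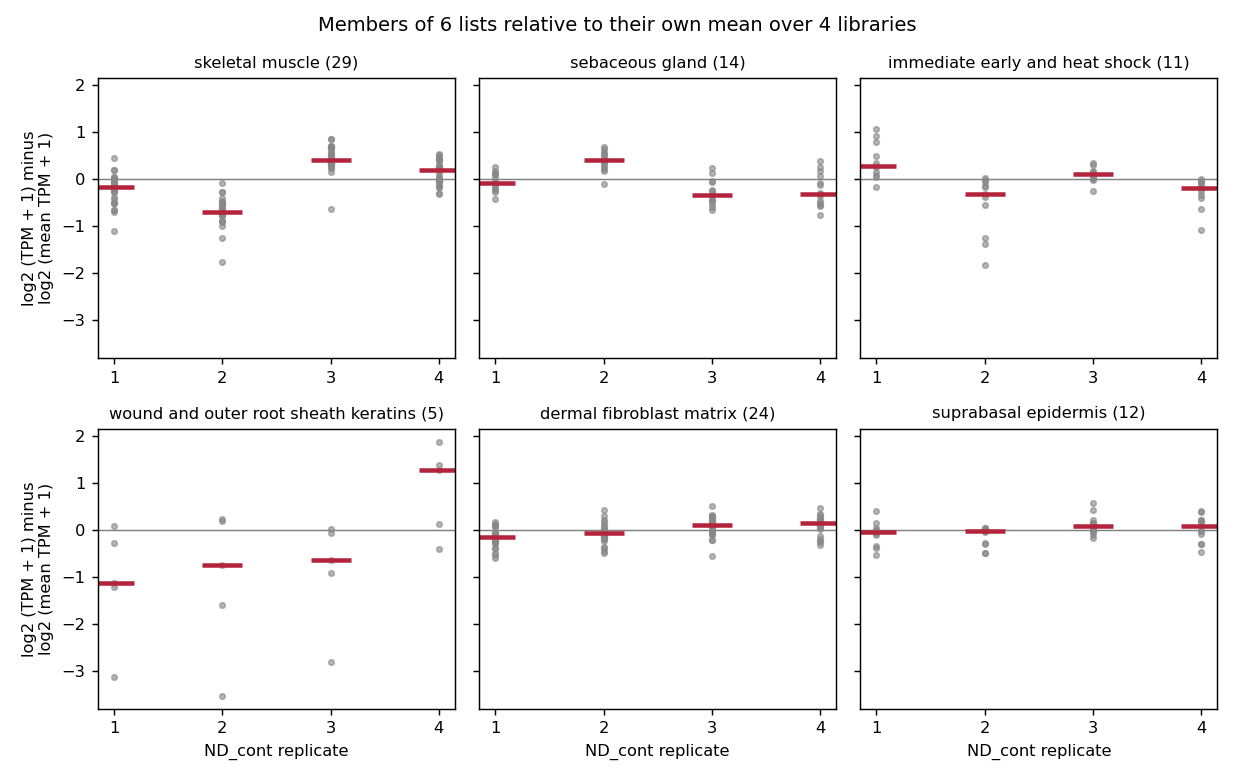
Each member of 6 gene lists as its log2(TPM + 1) in a library minus the log2 of its mean TPM + 1, by replicate; grey points are genes, red bars are medians, and numbers in parentheses count genes of at least 1 TPM. Muscle genes are highest in replicate 3 and lowest in replicate 2, sebaceous genes highest in replicate 2, and Krt6a, Krt6b and Krt16 highest in replicate 4, while the medians of the dermal and suprabasal lists stay near 0.

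At the other end, the 10 steadiest genes of at least 10 TPM had CVs under 2%. Plbd1, a lysosomal phospholipase-like protein, had 373, 368, 377 and 374 TPM, a CV of 0.92%. Map1lc3b, which coats autophagosomes, had 216, 214, 218 and 215 TPM. Prdm1, a transcriptional repressor found in sebaceous and terminally differentiating keratinocytes, had 48.1, 49.1, 48.0 and 48.4 TPM. The others were Ndel1, Max, Mfsd1, Eif1a, Poc5, Unc93b1 and Bfar. Their rank describes these 4 libraries.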

How the data were processed

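RNA of whole ear tissue was amplified by SMART-Seq2, made into libraries with Nextera XT and sequenced on an Illumina instrument, per the labels' protocols. The deposited table gives, for each gene, a whole-number count per library and a length in bases. Per the submitters' processing notes, STAR 2.3, featureCounts 1.5 and GRCm38 were used by the authors. For annotation release and strand setting: not given in the sources used here. SMART-Seq2 with Nextera XT keeps no strand and has no molecular identifiers, so SDs include PCR noise and intervals for counting error were not computed.

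Libraries were grouped by title. TPM was computed from the counts over all 48440 genes, with no filter. Means, SDs and CVs are over 4 libraries, and no test between groups was made. Biological variation came from edgeR 4.0.16 (R 4.3.3, TMM, filterByExpr, intercept only), and DESeq2 1.42.0 was an alternative. That step was tested on simulated data. Positions are from GENCODE M21 on GRCm38, matched by ID for 48058 genes. The gene table had 0 ERCC entries.

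Named genes are the 30 most abundant, the 4 highest of each list with defining members at 0, the 15 most and 10 least variable of at least 10 TPM, and keratins and collagens of at least 100 TPM. Mitochondrial, rRNA and predicted genes were left out of the ranking. Other genes named in the text were chosen after their values were seen. Members and lists were chosen with earlier results of these data known. For 113 symbols with several IDs the most counted ID was kept. Of 162 named genes, 34 share exon bases with another gene, in 25 cases solely with genes of the other strand. Values of some named genes are not reported here.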

Additional observations from a re-analysis of the deposited data

Results flagged for a closer look

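In 13 of 190 genes and list sums examined, 1 of the 4 libraries lay farther from its nearest neighbour than Dixon's 95% critical value allows, as a share of the whole range. Chance gives about 1 in 20 such groups, but many of these genes were chosen for their high or low CV in the same libraries, so the number found cannot be set against it. The odd library was the highest in all 13, and it was replicate 4 in 10 of them. Of all genes of at least 10 TPM, 38.2% had their highest value in replicate 4. The 10 are not separate items, since the neutrophil sum includes S100a8 and S100a9.

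The keratins Krt6b, Krt6a and Krt16 stood apart in replicate 4, with gaps of 0.984, 0.929 and 0.866 of the range. So did S100a8 and S100a9, with 0.939 and 0.949, and the summed neutrophil list with 0.965, to which these genes contribute most. Tchh, a protein of the inner root sheath, had 4.02, 4.30, 3.68 and 11.1 TPM, a gap of 0.916. The summed suprabasal list had 43972 TPM in replicate 4 and 39498.5 to 39944 TPM in the others, a gap of 0.9 on a range of 1.11 times. Its largest member, Krt2, had 27945 TPM in replicate 4 and 22800 to 23792 TPM in the others. Of the 12 genes of the list, 4 were highest in replicate 4 and 5 were lowest there. Of all genes of at least 10 TPM, 38.2% were highest and 21.9% lowest in that library. The gap was therefore not shared by the list as a whole. Mir7048 (0.868) and Mir7223 (0.887) also peaked in replicate 4, on at most 10 counts.

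In replicate 2, Cd3g, a T cell receptor subunit, had 26.8 TPM and 15.2 to 17.1 TPM in the others (0.837). In replicate 3, Trbd1 had counts and in the others none (a gap of 1), and Unc93b1 had 72.7 TPM with 70.3 to 70.6 TPM in the others (0.897).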

How the results depend on the processing

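Of 165 recomputed values, 142 stayed within the SD of the libraries, or within 1.5 times of a count, a ratio or the biological coefficient of variation, and 23 did not. A list sum averaged with 1 library left out cannot move by more than that SD, so these values could not fail. List ratios already close to 1 had little room to fail at 1.5 times. The number that stayed is therefore no measure of robustness. In CPM, which ignores length, the top 30 genes held 11.4% (15.4% of TPM without mitochondrial genes), and the sums became 19558 (basal), 32581 (suprabasal), 8903 (cornified), 10566 (sebaceous), 15255 (dermal), 2454 (cartilage) and 2248 (adipocyte). Without their highest gene the sums were 15391, 16315, 10956, 4133, 6619, 1691 and 1516 TPM in the same order. Without genes that other tissues share, they were 3294 (sebaceous), 9759 (dermal) and 1422 TPM (adipocyte). The number of genes with a 2-fold range was 672 to 865 with 1 library left out and 4262 at a mean of 1 TPM. The ratio of the highest to the lowest muscle library was 1.69 to 2.48 with 1 library left out. The common biological coefficient of variation was 0.313 without a filter and 0.182 by DESeq2. The cause of these shifts was not tested. No paired analysis was possible because no comparison between groups was made.

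Genes of short transcripts are a limit. Of protein-coding genes under 500 bases, 19.5% reached 1 TPM, and of those of 4 to 8 kb, 83.0% did. Genes under 200 bases took 1.35% of TPM on 0.0398% of counts. Below about 1 TPM, values rest on a few counts.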

Other observations

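Clock genes were well measured at the unstated time of sampling. The repressor Nr1d1 was the highest of 15, at 359, 344, 498 and 394 TPM, followed by Cry2 at 134 ± 23.4 TPM, while Arntl, the activator, averaged 22.7 ± 6.30 TPM. The sum of the list differed between libraries by only 1.13 times. Nr1d1 overlaps another gene on the opposite strand.

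Cell division genes summed to 253 ± 16.4 TPM. Pcna, a replication clamp, had 57.3, 58.5, 39.4 and 36.7 TPM and Mki67, a marker of cycling cells, 14.3, 13.9, 8.05 and 18.9 TPM. Replicate 3 was the lowest for 8 of the 15 genes, as it was for 27.6% of all genes of at least 10 TPM.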
